A study of Mus musculus with 25 samples.

Results

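Cytoplasmic ribosomal protein genes encode the proteins of the ribosome outside mitochondria, and their transcripts were measured across 25 bulk mRNA libraries of mouse bone marrow neutrophils. Members were chosen by symbol: names starting with Rpl or Rps followed by a digit, plus Rplp0, Rplp1, Rplp2 and Rpsa. Of 110 symbols that matched, 10 Rps6k kinase genes, 11 rows marked as pseudogenes (-ps) and Rpl30 were left out, which left 88. Of these, 85 had at least 10 counts in at least 2 libraries and are the members, out of 35741 symbols in the table. The 3 below that minimum were paralogs with little or no signal: Rpl10l had 0 counts over all libraries together, Rpl32l had 22 and Rpl39l had 33. The members with the lowest totals were Rps19bp1 with 1510 counts and Rpl3l with 1601. Checking the names against function, 76 members encode proteins of the standard ribosome (45 of the large subunit and 31 of the small one) and are called core members. The other 9 (Rpl22l1, Rpl36al, Rpl37rt, Rpl3l, Rpl7l1, Rps19bp1, Rps27l, Rps27rt and Rps4l) are paralogs, retrotransposed copies or proteins that only bear a ribosomal name.

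All libraries came from female C57BL/6J mice aged 6 to 13 weeks, whose marrow neutrophils were taken from the interface of 68% and 78% Percoll. The wild-type group had 3 libraries. Knockouts were Ripk3-/- (3 libraries), Mlkl-/- (3) and Ripk3-/- Mlkl-/- (2). Ptpn6∆PMN, a deletion of Ptpn6 in neutrophils, was combined with each of these as Ripk3-/- Ptpn6∆PMN (3), Mlkl-/- Ptpn6∆PMN (2) and Ripk3-/- Mlkl-/- Ptpn6∆PMN (3). Casp8∆PMN was added in Casp8∆PMN Mlkl-/- Ptpn6∆PMN (2) and Ripk3-/- Mlkl-/- Casp8∆PMN Ptpn6∆PMN (2). No group carried Ptpn6∆PMN on an otherwise wild-type background, so every Ptpn6 comparison was made among animals lacking Ripk3, Mlkl or both. A Casp8∆PMN Ptpn6∆PMN library (1) was the only one labelled as inflamed, and 1 library had a title that conflicts with its genotype label; neither entered a test. Ripk3 and Mlkl carry out necroptosis, Casp8 is the apical caspase of death receptor signalling, and Ptpn6 encodes the phosphatase SHP-1; the series addresses how Ptpn6 restrains inflammation that depends on them. The Cre line behind the ∆PMN alleles is not given in the sources used here, and ages of single mice within that range were not used here. The labels do not say whether the numbered libraries of a group came from separate mice, so p-values measure the spread between these libraries, part of which may be technical.

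A ribosome is assembled in the nucleolus from ribosomal RNA and a single copy of nearly every ribosomal protein, so cells make these proteins in matched amounts. Transcription of the genes is raised by Myc, and most of their mRNAs start with a run of pyrimidines (C and T) that lets mTOR, through Larp1, switch their translation on and off. Neutrophil precursors in the marrow make ribosomes while they divide, and ribosome production declines as the cells mature.

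The annotated start sites were searched for such a run, which the symbol rule did not use. RefSeq promoter windows on GRCm38.p6 (250 bases before to 50 after the start) were found for 65 of the 85 members. A run of at least 8 C or T bases, read on the gene's own strand and reaching within 10 bases of the annotated start, was present in 29 of these 65 members (44.6%). It was present in 27 of 57 core members (47.4%), against 15.8% of 27025 genes with a window and 2 of 8 other members (25%). The longest such run had a median of 7 bases in core members and 4 over all genes. The letters CCGGAA, on either strand, were found in 56.1% of core windows against 16.7% of all windows. CTTTCC was found in 50.9% against 29.3%, and TATAAA in 10.5% against 15.7%. All 3 were searched on both strands; CCGGAA read on the opposite strand can share letters with CTTTCC, and CTTTCC can lie inside a pyrimidine run. These are matches of letters and not measured binding sites. The 60 bases around the start (40 before and 20 after) are shown for some members, with the longest pyrimidine run near the start in capitals. These members were picked singly, so their starts do not show how common a run is. Rpl35, Rpl15 and Rps9 were chosen as core members with a run, Rpl38 as the core member with the smallest p-value in the first Casp8 comparison, and Rpl7l1 and Rpl3l as members outside the standard ribosome.
Rpl35, chr2:39005112-39005171, minus strand: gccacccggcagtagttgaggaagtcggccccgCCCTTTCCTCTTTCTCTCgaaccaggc
Rpl15, chr14:18270967-18271026, minus strand: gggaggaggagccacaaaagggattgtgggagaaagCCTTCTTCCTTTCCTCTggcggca
Rpl38, chr11:114668540-114668599, plus strand: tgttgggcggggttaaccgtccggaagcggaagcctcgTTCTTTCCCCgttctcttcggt
Rps9, chr7:3704001-3704060, plus strand: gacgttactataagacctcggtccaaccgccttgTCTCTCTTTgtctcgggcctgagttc
Rpl7l1, chr17:46782637-46782696, minus strand: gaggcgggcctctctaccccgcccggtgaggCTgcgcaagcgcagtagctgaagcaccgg
Rpl3l, chr17:24727786-24727845, plus strand: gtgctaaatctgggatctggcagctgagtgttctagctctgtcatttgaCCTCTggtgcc
The run is 18 bases in Rpl35, 17 in Rpl15, 10 in Rpl38 and 9 in Rps9. It is 2 bases in Rpl7l1, a ribosome assembly factor related to Rpl7, and 5 in Rpl3l, the heart and skeletal muscle counterpart of Rpl3.

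Libraries held 21598063 to 23187557 counts, of which the members took 0.760% to 1.51%. The labels were checked against the deleted genes, with levels in CPM (counts scaled to a common library size). Ripk3 was 0 to 0.154 CPM in the 13 libraries labelled as lacking it and 2.51 to 10.5 in the 11 others, and Ptpn6 was 120 to 314 in its 13 deleted libraries and 490 to 707 in the 11 others. Mlkl (0.230 to 1.64 against 1.40 to 4.85) and Casp8 (16.3 to 23.5 against 21.3 to 37.9) overlapped between labels. The 10 neutrophil markers were all present in every library, summing to 54881 to 130028 CPM. The libraries are bulk samples, in which fewer cells of a type and less RNA per cell cannot be told apart.

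Core members spanned a wide range of levels. Among the highest by mean CPM were Rps9 (786), Rplp0 (352), Rpl4 (310), Rpsa (286), Rpl17 (269), Rps16 (240.4) and Rpl7 (240.1), and the median core member was at 125. Rps9 sits at the mRNA entry channel of the small subunit, Rplp0 anchors the stalk that recruits elongation factors, Rpl4 lines the exit tunnel, and Rpsa doubles as a laminin receptor. The lowest were Rps27 (7.90), Rps6 (24.5), Rpl36a (29.7) and Rpl36 (31.7); Rps6 is the protein phosphorylated by S6 kinase downstream of mTOR. Levels between genes are comparable only per length. On the scale of CPM per kilobase, Rps9 was again highest at 954, and other high members were Rps27rt (587), Rps24 (432), Rplp0 (413) and Rpl41 (357). At the bottom of that scale were Rpl3l (2.77), Rps19bp1 (3.16), Rpl22l1 (7.66), Rps27l (10.3) and Rpl37rt (13.3), none of them core members, and then the core members Rps20 (18.6), Rpl22 (19.5) and Rps27 (19.8). The scale divides mean CPM by the median length of a gene's annotated transcripts. For Rps20, at a mean of 69.1 CPM, this was 1 transcript of 3706 bases, so its place depends on that annotated length. Rps4l, at a mean of 3.30 CPM, had no transcript length to divide by and has no place on this scale.

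Some of these levels can depend on how reads were assigned between near-identical copies. Of the 31-base words of the Rps6 transcripts, 84.9% are also in the pseudogene Rps6-ps4, and of the Rps27rt transcript 91.6% are in Rps27. The corresponding share was 35.3% for Rpl37, through its copy Rpl37rt, and 17.0% for Rps9 over all other genes together. By the same count over all other genes together, the share was 94.1% for Rpl36, 87.6% for Rpl36a, 86.2% for Rps18 and 83.2% for Rpl23a. The levels of these members other than Rps9, and of Rps27 and Rpl37rt, are therefore uncertain, including those of Rpl36 and Rpl36a among the lowest core members.

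Core members moved up and down together from library to library. The standard deviation (SD) of log2(CPM + 1) over the 25 libraries had a median of 0.248 among core members. Once the mean of all core members was subtracted in each library it fell to 0.119, and it became smaller for 73 of the 76. Counting error alone would give a median of 0.0272. The tightest after subtraction were Rps23 (0.0509), a protein of the decoding centre, and Rpl35 (0.0524), whose start is printed above. In 3 core members the SD was larger after subtraction: Rps9 (0.318 to 0.340), Rps27a (0.251 to 0.285) and Rpl37 (0.181 to 0.244). Rps27 had by far the widest spread, 1.02 before and 0.987 after. Each member is part of the mean subtracted. The median SD of the 7277 genes with a mean of at least 10 CPM was 0.204 before subtraction, and a typical core member differed 1.98-fold between its lowest and highest library.

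**Figure D1:**
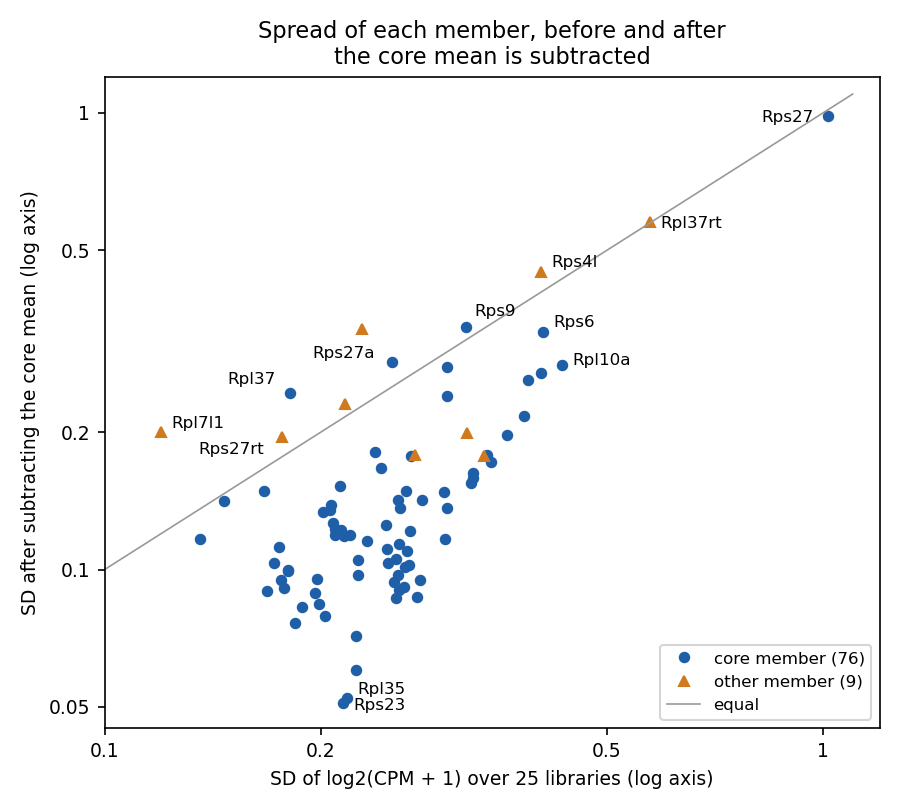
Standard deviation of log2(CPM + 1) over 25 libraries for each core member (circles) and other member (triangles), before (horizontal axis) and after (vertical axis) the mean of all core members was subtracted in each library, both on log axes. Core members below the line of equal values, 73 of 76, became less variable; Rps9, Rps27a and Rpl37 lie above it and Rps27 stands far to the right at 1.02.

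The common level of the core members differed between libraries of the same genotype. The mean log2(CPM + 1) of the core members ran from 6.38 in Mlkl-/- replicate 3 to 7.22 in Ripk3-/- Mlkl-/- Ptpn6∆PMN replicate 2. In the wild-type libraries it was 6.89, 6.62 and 6.89, and in Mlkl-/- 6.85, 6.73 and 6.38. In Ripk3-/- Mlkl-/- Ptpn6∆PMN it was 7.04, 7.22 and 6.40. Replicate 3 of that group lay below all wild-type libraries while the other two lay above all of them. Group means ran from 6.61 ± 0.00354 (SD, n = 2) in Mlkl-/- Ptpn6∆PMN to 6.94 ± 0.14 (SD, n = 3) in Ripk3-/- Ptpn6∆PMN, a span of 0.329. The widest gap between libraries of a group was 0.813, the pooled SD within groups 0.216 and the SD of the group means 0.121. These values rest on Ripk3-/- Mlkl-/- Ptpn6∆PMN replicate 3. Without it, an alternative chosen after seeing the data, the span of the group means was 0.519 and the widest gap 0.470, in Mlkl-/-, with a pooled SD of 0.153 and an SD of the group means of 0.163. The order of the spread within and between groups thus turned round. Of the 76 core members, 60 had their lowest level in Mlkl-/- replicate 3 or Ripk3-/- Mlkl-/- Ptpn6∆PMN replicate 3. Large and small subunit members shifted alike, their mean difference (small minus large) staying between -0.160 and 0.0599.

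**Figure D2:**
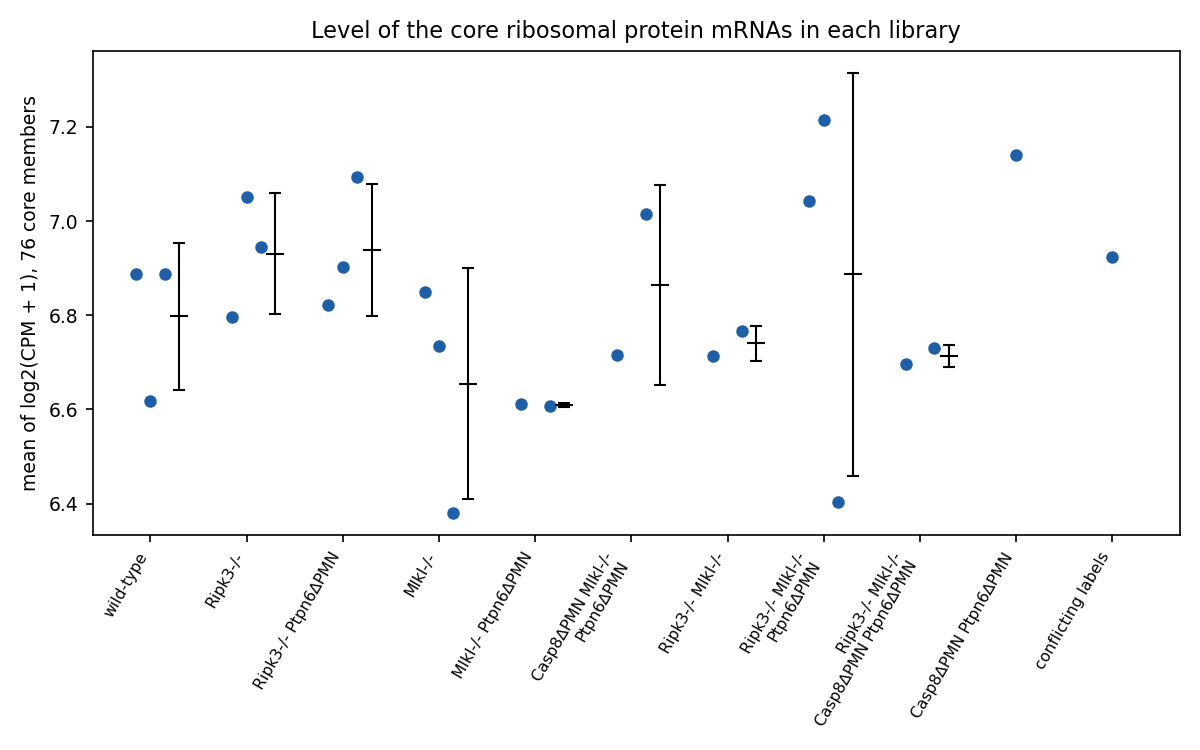
Mean log2(CPM + 1) of the 76 core members in each of the 25 libraries (points), by group, with group means and SD (bars). The 3 libraries of Ripk3-/- Mlkl-/- Ptpn6∆PMN reach from 6.40 to 7.22, nearly the range of the whole series.

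Markers of dividing cells and of B cells also differed between the libraries with the lowest core level and others. The mean log2(CPM + 1) of 17 cell cycle genes was 3.66 in Mlkl-/- replicate 3 and 4.00 in Ripk3-/- Mlkl-/- Ptpn6∆PMN replicate 3. It was 5.51 and 5.46 in replicates 1 and 2 of the latter group. For 12 B cell markers the values in the same order were 4.97, 4.64, 6.82 and 6.31. The 8 late neutrophil genes went the other way, at 11.74, 11.69, 11.08 and 11.02. Other libraries did not follow this. The inflamed library had a core mean of 7.14 with a B cell value of 5.06, and Casp8∆PMN Mlkl-/- Ptpn6∆PMN replicate 2 had 7.01 with 4.99. Ripk3-/- replicate 2 had a core mean of 7.05 with a cell cycle value of 4.60. Lists of 6 early (azurophil granule) and 6 middle (specific granule) neutrophil genes were also scored. In the order given for the B cell markers, the early list gave 2.18, 2.61, 2.89 and 4.02. The middle list gave 11.499, 12.38, 11.28 and 12.15, so it split the libraries with the lowest core level. The early list was highest, at 5.401, in Ripk3-/- Mlkl-/- Casp8∆PMN Ptpn6∆PMN replicate 1, whose core mean was 6.696. All genes of these lists were tested and none was at 0 in any library. Summed over the list, B cell markers gave 1073 to 1190 CPM in wild type, 668 to 1066 in Mlkl-/- and 460 to 2064 in Ripk3-/- Mlkl-/- Ptpn6∆PMN. Summed cell cycle genes gave 751 to 870, 304 to 597 and 364 to 1044 in those groups. The part of these cells in the members' levels was not tested.

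**Figure D3:**
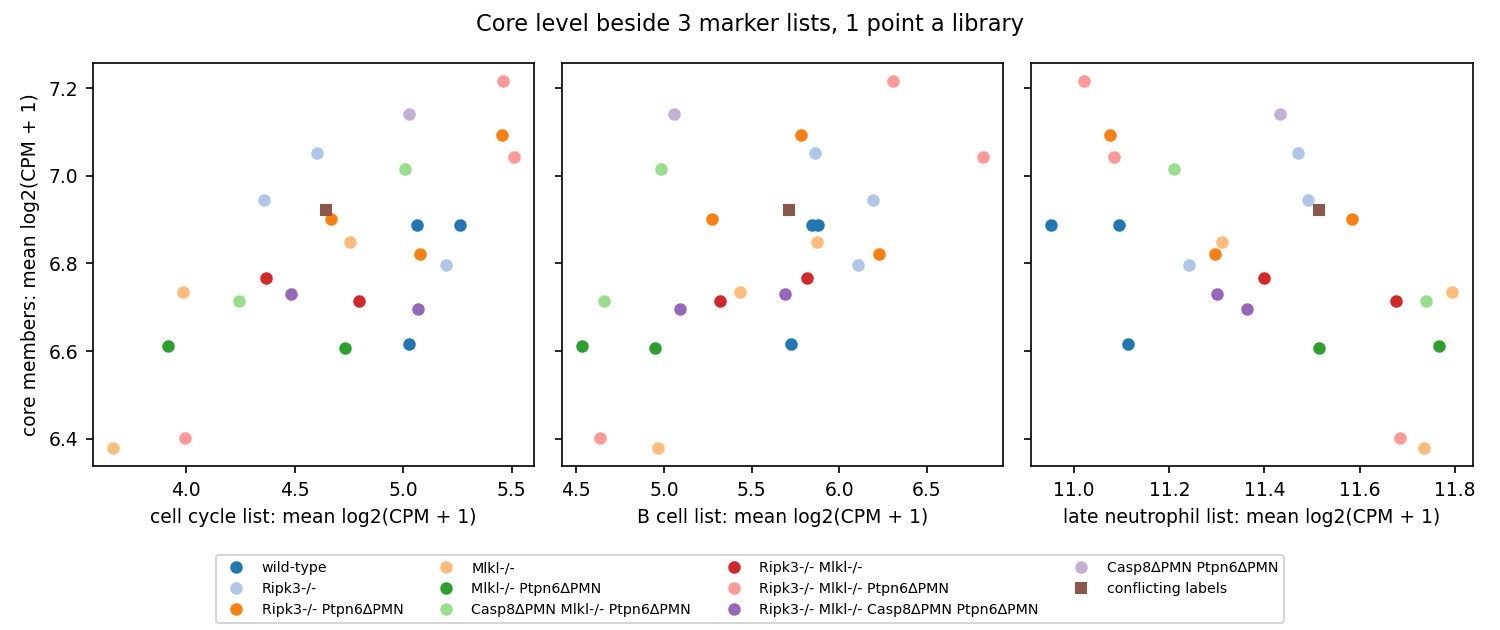
Mean log2(CPM + 1) of the core members against that of the cell cycle, B cell and late neutrophil lists, 1 point a library. The 2 libraries with the lowest core level also have low cell cycle and B cell levels and high late neutrophil levels; the 25 libraries share their groups, so no p-value is given.

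Groups were compared by quasi-likelihood tests in edgeR, with p-values adjusted by Benjamini-Hochberg over all 16206 genes that passed the count filter; all 85 members passed. A gene was called at an adjusted p under 0.05. The 3 knockout comparisons answer what loss of a necroptosis gene changed, and they share the same wild-type libraries. No member was called in any of them. In Ripk3-/- 0 of 85 members were called by edgeR (0.228% of all genes) and 0 by DESeq2, and 4 had an unadjusted p under 0.05 (6.86% of all genes). In Mlkl-/- the count was 0 by edgeR (1.16% of all genes) and 1 by DESeq2, which called Rps9, with 4 at an unadjusted p under 0.05 (19.4%). In Ripk3-/- Mlkl-/- it was 0 by both (1.04%), with 3 at an unadjusted p under 0.05 (14.3%). These percents are edgeR's. Over all genes DESeq2 called more in Mlkl-/- and Ripk3-/- Mlkl-/-, by the counts given in the last paragraph. The median log2 change of the members was 0.12 in Ripk3-/-, -0.14 in Mlkl-/- and -0.07 in Ripk3-/- Mlkl-/-, against -0.00, -0.03 and -0.03 over all genes. Estimates were above 0 for 75, 20 and 21 members, against 49.5%, 47.0% and 46.5% of all genes. The member counts rest on single libraries: without wild-type replicate 2 they were 47, 13 and 13. The second was 10 without Mlkl-/- replicate 2 and 36 without Mlkl-/- replicate 3, and the third was 35 without wild-type replicate 3.

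Rps9 was the member with the smallest p-value in each knockout comparison. Its level was 474, 511 and 567 CPM in wild type. It was 627, 789 and 707 in Ripk3-/-, 703, 879 and 704 in Mlkl-/-, and 827 and 679 in Ripk3-/- Mlkl-/-. The 3 wild-type libraries lay below all 22 others, a pattern held by no other member and by 1.01% of all genes. The log2 difference from wild type was 0.45 (SE 0.16, edgeR adjusted p = 0.463) in Ripk3-/-, 0.56 (SE 0.16, adjusted p = 0.0852) in Mlkl-/- and 0.54 (SE 0.18, adjusted p = 0.154) in Ripk3-/- Mlkl-/-. The difference in Mlkl-/- had a 95% interval of 0.22 to 0.90 and passed under DESeq2 (0.59, adjusted p = 0.0180) and in an edgeR fit of those 2 groups alone (0.57, adjusted p = 0.0411). With Casp8 deletion the level was 1008 and 1113 CPM in Casp8∆PMN Mlkl-/- Ptpn6∆PMN and 1129 in the inflamed library, but 741 and 828 in Ripk3-/- Mlkl-/- Casp8∆PMN Ptpn6∆PMN.

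**Figure D4:**
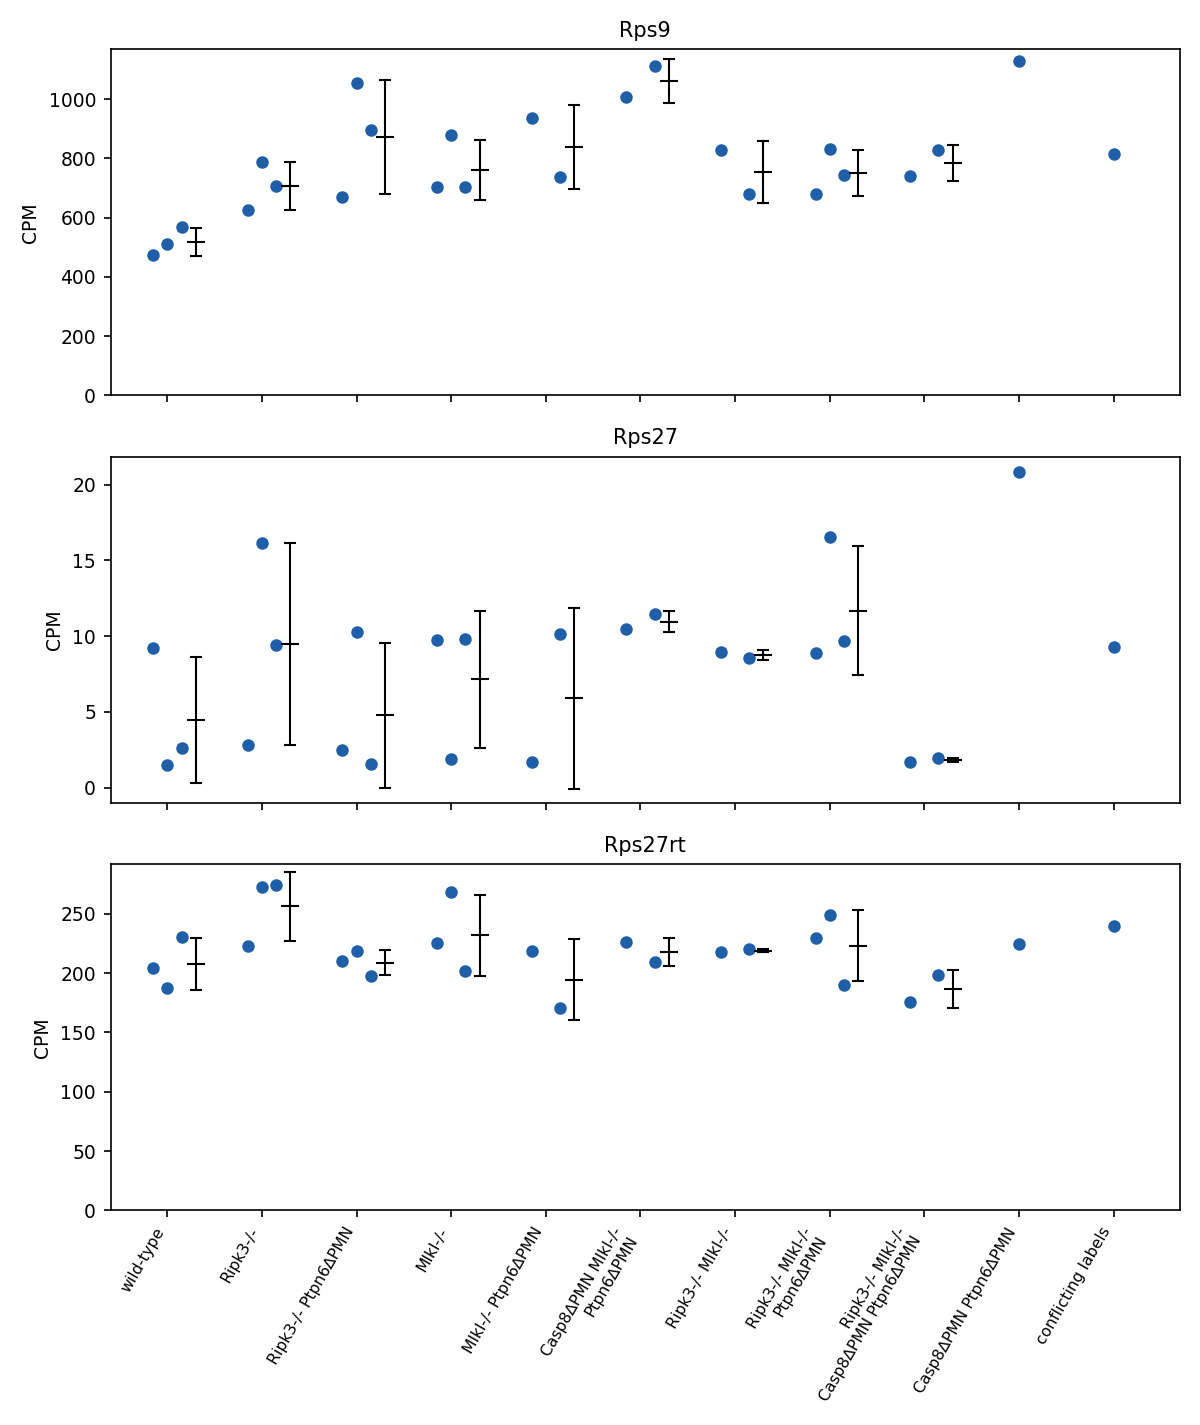
CPM of Rps9, Rps27 and Rps27rt in each library (points) by group, with group means and SD (bars). The wild-type libraries hold the 3 lowest Rps9 values (474 to 567), and Rps27 falls into 3 separate levels that do not follow the groups, while Rps27rt stays between 170.5 and 274.

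No other member of these 3 comparisons was called by edgeR or DESeq2. In Mlkl-/- the lowest core estimates were those of Rpl3, of the peptidyl transferase centre (log2 -0.54, SE 0.27), Rpl10a (-0.48, SE 0.31) and Rpl12, at the base of the stalk (-0.48, SE 0.27). Rpl3 was 138, 103 and 129 CPM in wild type and 108, 82.7 and 63.9 in Mlkl-/-, so the groups overlapped. Rpl12 was 139, 94.9 and 131 against 106, 89.0 and 66.8, again with overlap and with the lowest value in replicate 3. Rpl36 (-0.44, adjusted p = 0.187) and Rpl22l1, the paralog of Rpl22 (-0.70, adjusted p = 0.183), did not overlap but missed the threshold in edgeR. On the other side stood Rpl37 (0.31, SE 0.14) at 90.6, 98.5 and 102 CPM in wild type and 108, 137 and 115 in Mlkl-/-, again without overlap. Of the 85 members, 2 lay higher and 5 lower in Mlkl-/- without overlap, the latter including Rpl13a and Rpl28. The share of all genes without overlap was not counted there. In Ripk3-/- the core estimates ran from -0.11 (Rpl35a) to 1.08 (Rps27, SE 0.78), and in Ripk3-/- Mlkl-/- from -0.42 (Rpl35a, SE 0.20) to 0.97 (Rps27, SE 0.85).

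**Figure D5:**
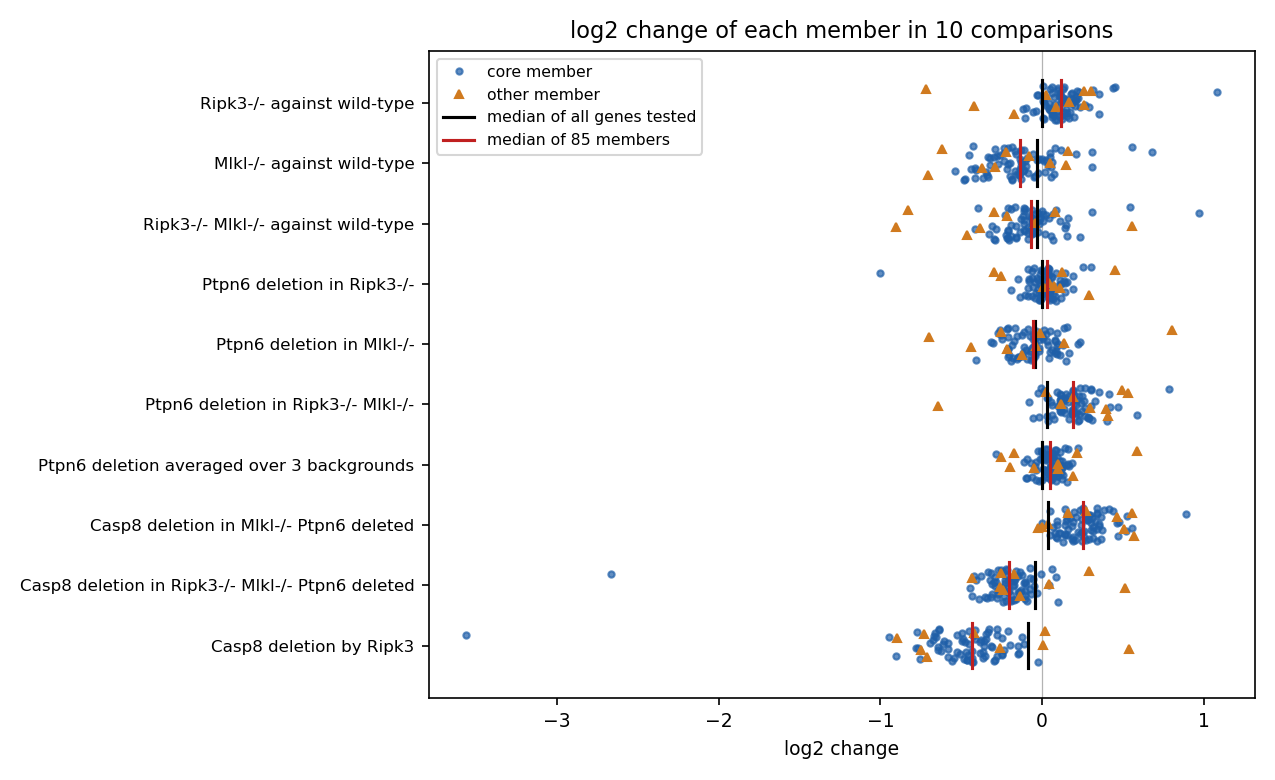
Estimated log2 change (horizontal axis) of each core member (circles) and other member (triangles) in 10 comparisons, the last being the difference between the 2 Casp8 effects, with the median of the 85 members (red line) and of all genes tested (black line). Rps9 stands to the right in the 3 comparisons with wild type, and most members stand above 0 in the first Casp8 comparison and below 0 in the second.

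Loss of Ptpn6 was compared within each knockout background. In Ripk3-/- 0 members were called by edgeR (0.0185% of all genes) or DESeq2, and 1 had an unadjusted p under 0.05 (5.50%). In Mlkl-/- 0 were called by either (1.51%), with 2 at an unadjusted p under 0.05 (17.5%). In Ripk3-/- Mlkl-/- 0 were called by either (0.00617%), with 5 at an unadjusted p under 0.05 (5.12%). Averaged over the 3 backgrounds, 0 were called by either (1.55%), with 2 at an unadjusted p under 0.05 (15.5%) in edgeR. The test of whether the effect differed by background called 0 by either (0.00%), with 1 at an unadjusted p under 0.05 (6.50%). The members' median log2 changes were 0.03, -0.05 and 0.19 in the 3 backgrounds and 0.05 on average, against 0.00, -0.04, 0.03 and 0.00 over all genes.

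In the Ripk3-/- Mlkl-/- background 79 of 85 members had estimates above 0, against 54.1% of all genes. This rested on single libraries: the median was 0.02 without Ripk3-/- Mlkl-/- Ptpn6∆PMN replicate 2 (48 above 0) and 0.38 without replicate 3 (83 above 0), and in the latter fit 47 members had an unadjusted p under 0.05 (19.4% of all genes) and 0 were called by edgeR. The largest core estimates were Rps6 (log2 0.79, SE 0.34), Rpl23 (0.59, SE 0.20) and Rpl39, of the exit tunnel (0.47, SE 0.22), all with an adjusted p of 0.846. Rps6 was 7.95 and 24.9 CPM in Ripk3-/- Mlkl-/- and 34.1, 32.1 and 19.0 with Ptpn6∆PMN added. The lower of the first pair, replicate 2, was the lowest Rps6 value of the series, the only one left in its group without Ripk3-/- Mlkl-/- replicate 3. In that fit Rps6 was called (1.84, edgeR adjusted p = 0.0398), with the lone library assumed to vary like the other groups. Rpl23 was 31.4 and 53.4 CPM against 61.5, 74.0 and 55.8, with no overlap. In this background 3 members lay higher and 1 lower without overlap, and the share over all genes was not counted. In the Mlkl-/- background the smallest p belonged to Rps19bp1, a binding partner of Rps19, at 2.64, 3.07 and 2.87 CPM without and 1.78 and 1.75 with Ptpn6∆PMN (log2 -0.70, SE 0.27, edgeR adjusted p = 0.188). The core estimates there ran from -0.41 (Rpl12, SE 0.31) to 0.24 (Rplp0, SE 0.20). In the Ripk3-/- background Rps9 (0.30, SE 0.16) was the highest core estimate and Rps27 (-1.0, SE 0.78) the lowest.

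Casp8 deletion was compared in 2 settings, with Mlkl and Ptpn6 missing in both. With Ripk3 present, 0 members were called by edgeR (0.00% of all genes) or DESeq2. Estimates were above 0 for 82 of 85 members, against 54.2% of all genes, with a median of 0.25 against 0.04. Of the members, 6 had an unadjusted p under 0.05 in edgeR (9.35% of all genes), all of them higher (4.67% of all genes higher), and 4 in DESeq2. In 42 members both deleted libraries lay above both others, as in 21.4% of all genes. Leaving out replicate 2 of Casp8∆PMN Mlkl-/- Ptpn6∆PMN brought the median to 0.09, with 0 members at an unadjusted p under 0.05 and 0 called in edgeR. Leaving out replicate 1 brought it to 0.41, and 10 members then reached an unadjusted p under 0.05.

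The smallest p-value there was that of Rpl38, a protein known for the selective translation of Hox mRNAs. Its level was 42.4 and 40.8 CPM in Mlkl-/- Ptpn6∆PMN and 54.3 and 68.4 with Casp8∆PMN added (log2 0.56, 95% interval 0.18 to 0.94, edgeR adjusted p = 0.369). Rps21 was 62.1 and 45.2 against 68.0 and 86.4 (0.53, SE 0.21, adjusted p = 0.453). Both deleted libraries exceeded the others for each gene. Rplp0 was 349 and 343 against 304 and 386 (-0.00, SE 0.22), with overlap. Rpl35a, Rplp2, Rpl23 and Rpl9 were the other members with an unadjusted p under 0.05. Summed cell cycle genes were 329 to 651 CPM in Mlkl-/- Ptpn6∆PMN and 433 to 722 with Casp8∆PMN, and summed B cell markers were 452 to 507 and 468 to 592; their part in the result was not tested.

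With Ripk3 also missing, estimates lay below 0 for most members. Here 7 of 85 were above 0, against 44.2% of all genes, and the median was -0.21 against -0.04. Calls were 0 by edgeR (0.00%) and 0 by DESeq2. An unadjusted p under 0.05 was reached by 5 members in each tool (4.63% of all genes), all lower in edgeR (2.38% of all genes lower). These were Rps27, Rpl9, Rpl17, Rps21 and Rpl23. Non-overlapping groups, lower with the deletion, were seen in 5 members, against 7.10% of all genes. The median was -0.03 without Ripk3-/- Mlkl-/- Ptpn6∆PMN replicate 2 (34 above 0), with 13 above 0 without replicate 1, and -0.39 without replicate 3 (4 above 0), where 55 members had an unadjusted p under 0.05 (20.2% of all genes) and 0 were called by edgeR.

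The difference between the 2 settings was tested directly. It called 0 members by edgeR (0.00617% of all genes) and 0 by DESeq2. An unadjusted p under 0.05 was reached by 17 members in edgeR (9.29% of all genes), all with a lower Casp8 effect when Ripk3 was missing (4.98% of all genes in that direction), and by 11 in DESeq2. The members' median interaction was -0.43 on the log2 scale, against -0.09 over all genes, and 3 were above 0. Rps21 had the smallest p (-0.95, SE 0.29, edgeR adjusted p = 0.399); its levels were 64.6, 81.3 and 54.1 CPM in Ripk3-/- Mlkl-/- Ptpn6∆PMN and 47.5 and 52.1 with Casp8∆PMN. Rpl38 was 54.6, 59.1 and 39.7 against 40.7 and 47.2 (interaction -0.78, SE 0.25, adjusted p = 0.423). Rpl23 (-0.91, SE 0.30) and Rpl9 (-0.61, SE 0.19) had adjusted p-values of 0.440 and 0.405. Without Ripk3-/- Mlkl-/- Ptpn6∆PMN replicate 3 the median was -0.64, 66 members had an unadjusted p under 0.05 (20.4% of all genes), the smallest adjusted p was 0.0884 (Rpl38) and 0 were called; without replicate 2 the median was -0.27 (9 above 0). Without Casp8∆PMN Mlkl-/- Ptpn6∆PMN replicate 2 it was -0.30 (10 above 0). The interaction uses 9 libraries, and the 3 of Ripk3-/- Mlkl-/- Ptpn6∆PMN have the widest range of core means within a group (6.40 to 7.22).

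A test of any difference among the 9 groups called 0 members in edgeR (1.58% of all genes), and 7 had an unadjusted p under 0.05 (22.0%). DESeq2 called 3, Rps9 (adjusted p = 0.000379), Rpl38 (0.0277) and Rps4l (0.0318), and gave 8 at an unadjusted p under 0.05. The percents above are edgeR's. DESeq2 called many more genes than edgeR here, by the counts given in the last paragraph. In edgeR the smallest adjusted p was that of Rps9 at 0.0765. Leaving out 1 library changed this: without Ripk3-/- Mlkl-/- Ptpn6∆PMN replicate 3, edgeR called 15 members, which compares with 20.5% of all genes. These included Rpl12 (adjusted p = 0.0192), Rpl38 (0.0229), Rps9 (0.0229), Rps7 and Rpl11 (both 0.0299), Rpl10a and Rpl19 (both 0.0314). Without Ripk3-/- Ptpn6∆PMN replicate 1 or replicate 2, only Rps9 was called (0.0147 and 0.0434). Relative to the summed level of the members in each library, 0 were called among the 9 groups (0.555% of all genes) and 2, Rps4l and Rps9, had an unadjusted p under 0.05 (13.5%). This test was not run in DESeq2. Without the library named above it called 5 members, Rpl12, Rpl35a, Rps27a, Rps4l and Rps9, against 18.2% of all genes.

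Rps27 had the widest spread of the 76 core members, and its near-copy Rps27rt had most of the counts of the pair. In 9 libraries Rps27 was at 1.51 to 2.83 CPM, in 13 at 8.54 to 11.5, and in 3 at 16.2 to 20.8, with nothing between. Wild type had 9.20, 1.51 and 2.63, and Ripk3-/- had 2.83, 16.2 and 9.41, so the levels cut across groups. The highest value was in the inflamed library. In raw counts the lowest level was 31 to 69 reads a library. Rps27rt lay between 170.5 and 274 CPM in all 25 libraries. The SD of log2(CPM + 1) was 1.02 for Rps27, 0.177 for Rps27rt and 0.184 for the sum of both. On average Rps27rt made up 219 of the 227 CPM of that sum, so the sum shows little of Rps27. Their starts share a stretch of 38 bases, shown in capitals as far as it lies in the 60-base windows; they are printed because these 2 transcripts share most of the words of Rps27rt.
Rps27, chr3:90213629-90213688, minus strand: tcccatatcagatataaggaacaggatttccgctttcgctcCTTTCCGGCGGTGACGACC
Rps27rt, chr9:114982720-114982779, minus strand: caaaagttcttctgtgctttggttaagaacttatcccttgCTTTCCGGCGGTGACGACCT
With both Rps27 values low (1.73 and 1.94) in Ripk3-/- Mlkl-/- Casp8∆PMN Ptpn6∆PMN against 8.87, 16.6 and 9.65 in Ripk3-/- Mlkl-/- Ptpn6∆PMN, the estimate there was -2.67 (SE 0.98, edgeR adjusted p = 0.864). Rps27 had the largest SE of the core members in each of the 2-group comparisons.

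Other members also share sequence with copies. Rpl11, which binds Mdm2 when ribosome assembly fails, had an SD of 0.198, its copy Gm6745 (mean 42.0 CPM) one of 0.288, and their sum one of 0.131. For Rpl23 and Gm9794 the SDs were 0.299 and 0.496, and 0.212 for the sum. For Rpl37 and Rpl37rt they were 0.181 and 0.575, and 0.170 for the sum. In each pair the sum varied less than either gene. Rpl36a and its paralog Rpl36al moved together instead, with SDs of 0.384 and 0.337 and 0.366 for the sum.

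The 9 members outside the standard ribosome did not all follow it. Rpl7l1, with 28.2 to 38.6 CPM over the libraries, had the smallest spread (SD 0.120), which rose to 0.200 once the core mean was subtracted. Rpl36al (0.337 to 0.178), Rpl22l1 (0.319 to 0.199) and Rps27l, a target of p53 (0.270 to 0.179), became less variable, as core members did. Rps4l (0.405 to 0.449) and Rpl3l (0.228 to 0.337) did not. Rps4l was 3.84, 3.79 and 4.06 CPM in wild type, 2.54, 2.89 and 1.67 in Ripk3-/- and 1.91 and 2.47 in Ripk3-/- Mlkl-/-. In Mlkl-/- it was 2.14, 3.72 and 1.74, and 3.67 and 5.19 with Ptpn6∆PMN. All 3 knockouts lay below wild type without overlap (log2 -0.72, SE 0.31, edgeR adjusted p = 0.667 in Ripk3-/-, -0.62, SE 0.31, adjusted p = 0.284 in Mlkl-/- and -0.83, SE 0.36, adjusted p = 0.298 in Ripk3-/- Mlkl-/-). Members lower without overlap numbered 1, 5 and 9 in those comparisons, and 9, 2 and 4 were higher. The share over all genes was not counted. The change of Rps4l with Ptpn6 deletion averaged over the backgrounds was 0.59 (SE 0.20, edgeR adjusted p = 0.138). It was called only without Ripk3-/- Ptpn6∆PMN replicate 1 (0.68, edgeR adjusted p = 0.0294). Rps4l had 73.3 counts a library on average, so counting error is a larger part of its spread than for core members. Rpl3l stayed between 1.80 and 4.65 CPM.

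Genes that work with the ribosome were taken from lists of 18 translation factors, 31 ribosome biogenesis genes, 77 mitochondrial ribosomal proteins and 14 mTOR and Myc regulators. Across the 13 comparisons 1 of these genes was called in edgeR, Mrpl44 of the mitochondrial ribosome in Mlkl-/- (log2 -0.77, SE 0.18, adjusted p = 0.0469), where 1.16% of all genes were called. In that comparison 2 of 31 biogenesis genes were above 0 (median -0.52), 18 of 77 mitochondrial ribosomal proteins (median -0.28) and 3 of 18 translation factors (median -0.11). Over all genes 47.0% were above 0 there (median -0.03). With Casp8 deletion and Ripk3 present, 72 of 77 mitochondrial ribosomal proteins were above 0 (median 0.31), while 10 of 18 translation factors and 16 of 31 biogenesis genes were (medians 0.02 and 0.01). The share over all genes was 54.2% (median 0.04). With Ripk3 missing, 11 of 77 mitochondrial ribosomal proteins were above 0 (median -0.16), against 44.2% of all genes (median -0.04).

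Single partners of the members were also below the threshold. Fau, a small-subunit protein made as a fusion with a ubiquitin-like domain, was estimated 0.36 (SE 0.16, edgeR adjusted p = 0.671), 0.42 (SE 0.16, adjusted p = 0.180) and 0.34 (SE 0.18, adjusted p = 0.403) above wild type in Ripk3-/-, Mlkl-/- and Ripk3-/- Mlkl-/-. In Mlkl-/- Larp1 was at -0.49 (SE 0.21, adjusted p = 0.212), Myc at -0.60 (SE 0.39), Rack1, which sits on the small subunit, at -0.30 (SE 0.24) and Eef1a1, the elongation factor that delivers aminoacyl-tRNA, at -0.19 (SE 0.18). None of these 5 genes was called in any of the 13 comparisons in edgeR.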

How the data were processed

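Per the labels' protocols, mRNA was enriched and sequenced in paired 100 base reads. Per the submitters' processing notes, Salmon 0.14.1, GRCm38.p6 and DESeq2 were used; their roles are not given in the sources used here. Estimated counts deposited by the authors, for 35741 gene symbols in 25 libraries (24.9% of values not whole), were rounded here. Groups came from the genotype labels. edgeR 4.0.16 (R 4.3.3) was fitted to 23 libraries in 9 groups, with TMM scaling and the quasi-likelihood test. The filter on low counts was filterByExpr, with a minimum count of 10 and a minimum total of 15. It does not ask for that minimum count in every library. Benjamini-Hochberg adjustment covered 16206 genes, and 14 residual degrees of freedom share 1 estimate of spread per gene. CPM use TMM-scaled library sizes, and log2 levels are log2(CPM + 1); fold changes are fitted. The fit was tested on simulated data. Alternatives were DESeq2 1.42.0 tests, its size factors in edgeR, no filter, a fit of only the groups compared, a block for the replicate number and leave-one-out fits. Members, lists and tests were chosen with earlier results of these data known. Named in the text were called members, the 3 highest and 3 lowest core changes per comparison, the highest and lowest levels, members outside the standard ribosome and partner genes; some of these are not reported here. Sequence shared between genes was counted as 31-base words of GENCODE transcripts.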

Additional observations from a re-analysis of the deposited data

Results flagged for a closer look

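The inflamed Casp8∆PMN Ptpn6∆PMN library was a single library that no comparison used. It had 66 of 85 members (77.6%) above the highest wild-type library, against 34.5% of the 16206 genes tested. It had 3 members (3.53%) below the lowest wild-type library, against 38.01% of genes tested. Its core mean was 7.14 on the log2(CPM + 1) scale. It held the highest Rps9 (1129 CPM) and Rps27 (20.8 CPM) levels of the series. With 1 library there is no replicate check.

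The library whose title conflicts with its genotype label had 34 of 85 members (40%) above the highest wild-type library, against 30.4% of genes tested. It had 3 members (3.53%) below the lowest wild-type library, against 33.2% of genes tested. Its core mean was 6.92, Rps9 was 815 CPM and Rps4l, at 1.54 CPM, was the lowest of the series. Both libraries are listed because they lie outside the comparisons and exceed the wild-type range. In the library with conflicting labels, Ripk3 was at 0.0878 CPM and Mlkl at 0.747, within the ranges of libraries labelled with those deletions. Ptpn6 was at 582 CPM and Casp8 at 30.7, within the ranges of libraries without theirs. It was assigned to no group.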

How the results depend on the processing

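Under the alternatives, counts of called members moved by more than 1.5 times in 13 fits, given here. The members' medians and their counts above 0 shifted too, with single libraries, by the values given with each comparison. No member was called in the knockout, Ptpn6 or Casp8 comparisons except as follows. In Mlkl-/- against wild-type, DESeq2 tests and the fit of only the groups compared each called 1 (Rps9). Ptpn6 deletion in Ripk3-/- Mlkl-/- called 0 to 1 over leave-one-out fits, and so did the average over 3 backgrounds. Any difference among 9 groups called 1 with no filter, 3 in DESeq2, 0 to 15 over leave-one-out fits and 21 without Mlkl-/- replicate 3 and Ripk3-/- Mlkl-/- Ptpn6∆PMN replicate 3 together, an alternative chosen after seeing the data. The test relative to the members' total called 2 with no filter (Rps27 and Rps4l), 0 to 5 over leave-one-out fits and 5 without both libraries. The cause of these moves was not tested.

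Estimates near 0 changed sign. Rps27a with Ptpn6 deletion in Ripk3-/- Mlkl-/- became 0.0267 under the replicate block. Rplp0 with Casp8 deletion and Ripk3 present became 0.00188 with no filter. Rpl10 in the interaction became 0.0246 with DESeq2 size factors and in DESeq2 tests. In that Ptpn6 comparison, without both libraries, Rplp2 became 0.0807 and Rpl17 0.0858. With Casp8 deletion and Ripk3 missing, Rps2 became -0.124 and Rpl10 -0.0843 without both. Over leave-one-out fits, Rpl36 in Ripk3-/- ranged from -0.197 to 0.0256 and Rpl35a from -0.215 to 0.00764; in Ripk3-/- Mlkl-/- Rps6 ranged from -1.45 to 0.202 and Rpl23 from -0.765 to 0.00168. With Ptpn6 deletion in Ripk3-/- Mlkl-/- the ranges were -0.200 to 0.0808 (Rplp2), -0.217 to 0.126 (Rpl17) and -0.144 to 0.11 (Rps27a). With Casp8 deletion they were -0.185 to 0.16 (Rplp0), -0.0536 to 0.142 (Rpl23a) and -0.147 to 0.227 (Rps4x) with Ripk3 present, and -0.0186 to 0.145 (Rps9), -0.13 to 0.281 (Rps2) and -0.0842 to 0.228 (Rpl10) with Ripk3 missing. In the interaction they were -0.387 to 0.194 (Rps2), -0.300 to 0.0748 (Rplp0) and -0.213 to 0.159 (Rpl10).

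In no comparison with 3 shared numbers were all 3 correlations of deviations over 0.1; replicate 1 reached 0.405 in Mlkl-/- and 0.252 in Ripk3-/- against wild-type. With 2 numbers both correlations were over 0.1 only in Ripk3-/- Mlkl-/- against wild-type (0.212 and 0.190) and Casp8 deletion with Ripk3 present (0.250). The labels do not say that a number marks a shared mouse or day. The replicate block called 0 members in each of the 13 comparisons; over all genes it moved the count by more than 1.5 times only in Ripk3-/- Mlkl-/- against wild-type (169 to 101).

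Counts of called genes over all 16206 shift more than those of members. In place of 188, 169 and 244 for Mlkl-/-, Ripk3-/- Mlkl-/- and Ptpn6 deletion in Mlkl-/-, DESeq2 called 802, 447 and 771. For any difference among 9 groups it called 2646 in place of 256, and edgeR called 55 to 3315 over leave-one-out fits. Among the members, DESeq2 called 1 beside those 802 genes in Mlkl-/- and 3 beside those 2646. Over leave-one-out fits in edgeR, members at an unadjusted p under 0.05 numbered 1 to 7, 1 to 16 and 0 to 10 in the 3 comparisons with wild type, 0 to 2, 0 to 2 and 0 to 47 for Ptpn6 deletion in the 3 backgrounds, 0 to 16 and 0 to 55 for Casp8 deletion and 6 to 66 for the interaction; Ripk3-/- Mlkl-/- Ptpn6∆PMN replicate 3 was the library left out at 16, 47, 16, 55 and 66. With 2 or 3 libraries a group, the 95% intervals of a typical member are wide beside the changes estimated, and a p over the threshold does not show that levels were the same.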
